A study of Mus musculus with 10 samples.

Results

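Oxidative phosphorylation genes were taken by name from 7 mouse tissues measured by spatial transcriptomics. Gene symbols beginning with mt-Nd, mt-Co, mt-Atp or mt-Cytb (mitochondrial genome) or with Nduf, Uqcr, Cox4 to Cox8 or Atp5 (nuclear genome) matched 102 genes, and 95 of them had at least 5 CPM (UMIs of the gene per 1e+06 UMIs) averaged over the 10 sections. These 95 members, of 9823 genes at that level and 31053 genes in the files, comprised 12 mt- genes and 83 nuclear genes. By respiratory complex, as read from the symbol, the nuclear members were 38 genes named as subunits of complex I (7 core and 31 accessory), 8 complex I assembly factors, 8 genes of complex III, 13 of complex IV and 16 of complex V. The other 7 matched genes fell under the minimum and were mt-Nd6, Cox4i2, Cox6a2, Cox7b2, Cox8b, Cox8c and another gene identifier carrying the symbol Atp5o.

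Oxidative phosphorylation is the route by which mitochondria turn reduced cofactors into ATP. Complex I accepts electrons from NADH, complex III passes them from ubiquinol to cytochrome c, complex IV hands them to oxygen, and the proton gradient that these complexes build drives complex V, the ATP synthase. Complexes I, III, IV and V are mosaics of both genomes, since a few hydrophobic core subunits are made inside the organelle from polycistronic transcripts while all other subunits are imported, and hepatocytes, which are rich in mitochondria, take more of their respiratory load on the periportal side of the lobule.

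The study used ABC-Myc mice, in which Cre driven by the albumin enhancer and promoter, a hepatocyte driver, removes a floxed STOP cassette in front of a CAG promoter-driven human c-MYC on a C57BL/6J background. The data are 10 µm frozen sections on Visium slides, in which each spot holds several cells, with 4 adjacent sections of tissue NEJ146 (labelled total RNA) and 1 section each of NEJ634, NEJ638, NEJ654, NEJ677, NEJ687 and NEJ723 (labelled polyA RNA). The labels give hepatoblastoma for all of them but name both tumour and normal liver for the 6 single sections without assigning them, while the study's text names NEJ634, NEJ687, NEJ723 and NEJ146 as tumours and also speaks of healthy livers, which by elimination would be NEJ638, NEJ654 and NEJ677. Because the labels do not assign these sections, every tissue formed its own group and no test between tissues was made. The study's methods give littermates lacking the Cre, the MYC transgene or both as normal controls. If the healthy livers came from such littermates, they would not have the ABC-Myc genotype. Neither age nor genotype is given per section. Values over the NEJ146 sections are given with the SD (n = 4 adjacent sections), which is no spread between animals, and the other tissues carry counting error alone.

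Tissue spots held 39280329 to 117077925 UMIs (unique molecular identifiers, 1 per captured molecule) per section, at a median of 12133.5 to 28926.5 UMIs per spot, and the members took 2584702 to 15656906 of them. At this depth the 95% Poisson interval of a member in a section reached, averaged over its 2 sides, a median over all members and sections of 1.12% and at most 34.2% of its value, the latter for Cox6b2 in NEJ677, where the interval is not symmetric. Hepatocyte markers (Alb, Ttr, Apoa1, Cyp2e1 and Cps1) were all detected, with a sum of 81326 to 115745 CPM in NEJ638, NEJ654 and NEJ677 and 15617 to 29264 CPM in the other sections. Most of the sum in those 3 tissues was Alb (51663 to 85700 CPM). Cps1 made no such division, at 1701 to 2482 CPM in those 3 tissues and 1168 to 2366 elsewhere. Apoa1 nearly met, at 7252 CPM in NEJ654 and 7046 in NEJ723. Oncofetal markers (Afp, Igf2, H19 and Dlk1) ran the other way as a sum, between 10.1 and 90.1 CPM in NEJ638, NEJ654 and NEJ677 and between 3804 and 13628 elsewhere. Of the 4, H19 did not follow this division, at 80.2 CPM in NEJ638 and 11.96 in NEJ723. Erythroid markers summed to 6526 to 8193 CPM in the NEJ146 sections and NEJ687, 1890 in NEJ723, 682 in NEJ634 and 78.2 to 204 in NEJ638, NEJ654 and NEJ677. Among them Alas2 overlapped, at 12.7 to 50.7 CPM in NEJ638, NEJ654 and NEJ677 and 5.31 to 53.7 elsewhere. Because Visium reads whole spots, fewer cells of a type cannot be told apart from less RNA per cell, and the part of cell makeup in the values below was not tested.

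The mitochondrial genome packs its genes end to end, which bears on how their reads can be told apart. The coding stretches of mt-Atp8 and mt-Atp6, both complex V, share 43 bases, those of mt-Nd4l and mt-Nd4, both complex I, share 7, and the end of mt-Nd5 overlaps mt-Nd6 on the opposite strand by 14. mt-Atp6 and mt-Co3 also share 1 base, which is not shown. The longer overlaps are shown with 12 flanking bases on either side (GRCm38, strand of the first gene, shared bases in capitals), so that stretches where levels may not be independent can be seen.
mt-Atp8 and mt-Atp6, chrM:7915-7981: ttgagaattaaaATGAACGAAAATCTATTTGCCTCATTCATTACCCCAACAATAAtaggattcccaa
mt-Nd4l and mt-Nd4, chrM:10155-10185: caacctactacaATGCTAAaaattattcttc
mt-Nd5 and mt-Nd6, chrM:13540-13577: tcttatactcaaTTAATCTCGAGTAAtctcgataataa

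Visium captures RNA through its poly(A) stretches, so runs of A inside the transcripts are also a feature of these genes. Runs of at least 6 A numbered 3 in mt-Nd2, 2 in mt-Nd4, 2 in mt-Nd5, 1 in mt-Nd1 and 1 in mt-Co1, and none was found in the other mt- members. The longest run of mt-Nd2, 892 bases before the end of the gene, that of mt-Nd4, 1311 bases before its end, and that of mt-Nd1, 82 bases before its end, are shown with 20 flanking bases and the run in capitals, since the balance of these transcripts differed between tissues.
mt-Nd2, chrM:4032-4079: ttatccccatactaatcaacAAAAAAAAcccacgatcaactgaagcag
mt-Nd4, chrM:10207-10253: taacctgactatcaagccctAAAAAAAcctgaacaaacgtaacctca
mt-Nd1, chrM:3600-3645: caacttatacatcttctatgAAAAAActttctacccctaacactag

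The summed mt- level set NEJ146 apart, whereas the summed nuclear level separated NEJ638, NEJ654 and NEJ677 from the other tissues. The 12 mt- members summed to 67778, 68515, 69954 and 72214 CPM in NEJ146 sections 1 to 4, 38561 in NEJ634, 34192 in NEJ687, 28394 in NEJ723, 24602 in NEJ638, 29899 in NEJ654 and 28282 in NEJ677. All 4 NEJ146 sections lay above every other tissue, the lowest of them 1.76-fold over NEJ634, and their mean was 69615 ± 1954 CPM. Among the 6 single sections the mt- sum spanned 1.57-fold and did not divide the tissues as the nuclear sum did. NEJ723 (95% interval 28344 to 28444) and NEJ677 (28229.6 to 28335) lay closer to each other than adjacent NEJ146 sections did.

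The 83 nuclear members summed to 60766, 60116, 63777 and 61018 CPM in NEJ146 sections 1 to 4, 58559 in NEJ634, 60332 in NEJ687, 56586 in NEJ723, 41523 in NEJ638, 33798 in NEJ654 and 37519 in NEJ677. NEJ687 sat within the NEJ146 sections, NEJ634 and NEJ723 just below them, and NEJ638, NEJ654 and NEJ677 well below. The highest tissue exceeded the lowest 1.82-fold, and the lowest of NEJ634, NEJ687 and NEJ723 exceeded the highest of NEJ638, NEJ654 and NEJ677 1.36-fold. For the mt- sum that quotient was 0.950, so the same division was absent there.

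**Figure D1:**
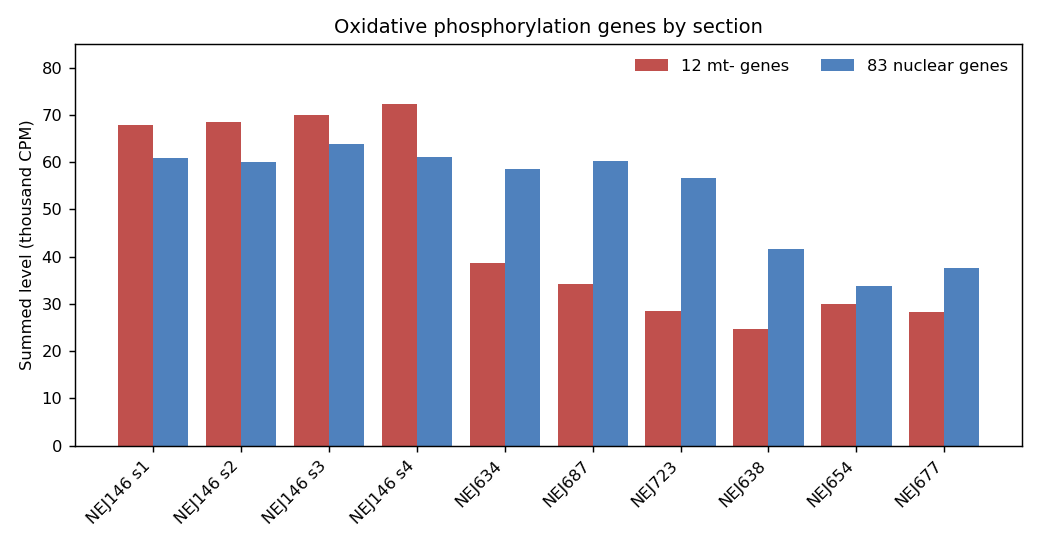
Summed level (vertical axis from 0, in units of 1000 CPM) of the 12 mt- genes (red bars) and the 83 nuclear genes (blue bars) in each of the 10 sections (horizontal axis). The 4 NEJ146 sections stand at 67777.5 to 72214 CPM for the mt- sum against 24602 to 38561 in the single sections, while the nuclear sum is low in NEJ638, NEJ654 and NEJ677 only (33798 to 41523 against 56586 to 63777).

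Several measured properties moved with the NEJ146 level. NEJ146 is also the tissue labelled as total RNA, its processing notes name Cell Ranger where those of the others name Space Ranger, and its tissue spots were set here by a minimum of 8000 UMIs, so tissue and batch cannot be told apart for its mt- level. In the 6 tissues with position files, spots off the tissue held an mt- share of 5.19% to 8.85% of UMIs against 2.46% to 3.86% over the tissue, 1.95-fold to 2.90-fold as much. Nuclear members showed no such step, with log2 off-over-on differences from -0.16 in NEJ723 to 0.03 in NEJ677. The NEJ146 spots under 8000 UMIs held mt- shares of 9.92%, 7.12%, 9.03% and 8.71% in sections 1 to 4, and those kept as tissue held 6.78%, 6.85%, 6.995% and 7.22%. The NEJ146 tissue share thus lay in the range of off-tissue shares elsewhere, and the part of free RNA in it was not tested. For the ABC-Myc tissue the study's methods describe perfusion with EDTA and then collagenase before freezing. The part of this handling in the mt- shares was not tested either.

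The mt- share differed with depth in one direction within most sections. Tissue spots were put into 4 equal classes by UMIs. From the shallowest class to the deepest, the share went from 1.65% to 3.22% in NEJ638, 2.79% to 4.41% in NEJ634 and 3.11% to 3.68% in NEJ687, was higher in the deepest class in NEJ146 sections 1 to 3 as well, and was lower there in section 4, at 6.96% against 7.46%. The nuclear share was lower in the deepest class in all 4 NEJ146 sections (6.57% to 5.61% in section 1) and in NEJ687 (6.06% to 5.91%), and higher there in the other 5 single sections, for example from 5.37% to 6.13% in NEJ634 and from 3.10% to 3.45% in NEJ654. Across tissue spots the mt- and nuclear shares were inversely related in NEJ146 (Spearman rho -0.28, -0.17, -0.13 and -0.17 in sections 1 to 4) and directly related in the single sections (0.14 in NEJ687 to 0.48 in NEJ638). After partialling out the log10 UMIs of each spot, rho was -0.26 to -0.10 in NEJ146, and it went from 0.33 to 0.09 in NEJ634, from 0.28 to 0.06 in NEJ654 and from 0.48 to 0.39 in NEJ638. These are descriptions over 1890 to 4878 spots that share a library and a total, and they carry no test.

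Each mt- member was highest in NEJ146, but the balance among them differed between the other tissues. In 11 of the 12 all 4 NEJ146 sections lay above the 6 other tissues, against 2.13% of all genes tested, and none of the members lay below them in all sections, against 9.37% of all genes. The highest tissue exceeded the lowest by at least 2-fold in all 12 mt- members over the 7 tissues (63.5% of all genes), and in 3 of 12 over the 6 single sections (61.4% of all genes). Folds between tissues are of CPM + 1, and the counts come from transcript ends, so the level of a gene is compared between tissues, and shares, quotients and ratios of genes are likewise read only across tissues, not for their own size.

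Complex I has 6 mt- members, which form its proton-pumping membrane arm. mt-Nd1 was at 3014, 3532, 3684 and 3261 CPM in NEJ146 sections 1 to 4, 1885 in NEJ634, 1686 in NEJ687, 1536 in NEJ723, 1150.4 in NEJ638, 816 in NEJ654 and 1045 in NEJ677. mt-Nd2 was at 1497, 1989, 1865 and 2074 CPM in NEJ146 sections 1 to 4, 1111 in NEJ634, 797 in NEJ687, 676.6 in NEJ723, 1185 in NEJ638, 1157 in NEJ654 and 1676 in NEJ677. The 2 genes ordered the single sections differently, since mt-Nd1 was lowest in NEJ654, NEJ677 and NEJ638 and mt-Nd2 was lowest in NEJ723 and NEJ687. NEJ677 exceeded NEJ146 section 1 for mt-Nd2, which makes it the mt- member without a gap to NEJ146. mt-Nd4 was at 2962, 3339.7, 3323 and 3425 CPM in NEJ146 sections 1 to 4, 1709.6 in NEJ634, 1404 in NEJ687, 1069 in NEJ723, 1655 in NEJ638, 2111 in NEJ654 and 2079 in NEJ677. It was higher in NEJ654 and NEJ677 than in NEJ634, NEJ687 and NEJ723. mt-Nd5 did not divide these tissues, at 114 CPM in NEJ654, 107 in NEJ687, 105 in NEJ677, 92.8 in NEJ634, 86.2 in NEJ638 and 61.2 in NEJ723. mt-Nd3 was at 862 ± 137 CPM in NEJ146 and 416 to 589 elsewhere, and mt-Nd4l at 29.4 ± 4.14 and 11.1 to 19.4.

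Complex III has a single mt- member, mt-Cytb, the cytochrome b that carries both quinone sites. It was at 6354, 6841, 6894 and 8959 CPM in NEJ146 sections 1 to 4, 4219 in NEJ634, 2997 in NEJ687, 2860.3 in NEJ723, 3333 in NEJ638, 3797 in NEJ654 and 4058 in NEJ677, with NEJ146 section 4 well above its neighbours. Complex IV has 3, the catalytic subunits. mt-Co1, which holds the site of oxygen reduction, was at 16636 ± 674 CPM in NEJ146, 9587 in NEJ634, 7990 in NEJ687, 7212 in NEJ654, 7156 in NEJ723, 6104 in NEJ677 and 5016 in NEJ638. mt-Co2, which receives electrons from cytochrome c, and mt-Co3 were likewise lowest in NEJ638, at 2272 and 5394 CPM against 7255 ± 249.7 and 16615 ± 1114 in NEJ146. Complex V has mt-Atp6, the subunit of the proton channel, at 12239 ± 154 CPM in NEJ146 and 3943 to 7418 elsewhere, and mt-Atp8, at 27.6 ± 5.51 and 3.56 to 14.4. mt-Atp8 had the widest range of the 12, 6.27-fold over the 7 tissues, and lies on the same stretch as mt-Atp6 over the 43 bases printed above. mt-Nd6, the 1 gene here read from the other strand, stayed under the minimum at 0.636 to 3.99 CPM.

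As a share of all mt- UMIs, 7 of the 12 transcripts divided the tissues along the same line as the nuclear sum, with ranges that did not overlap, and 5 (mt-Nd1, mt-Co1, mt-Co2, mt-Atp6 and mt-Co3) did not. Of all genes tested 27.9% did so by their quotient to the mt- UMIs, 22.2% with NEJ638, NEJ654 and NEJ677 above and 5.7% with them below, and the shares of the 12 are not independent, since they add up to a fixed total. Nearly all of the genes tested lie outside the mt- sum, so their quotients also move with its level. This background is therefore not like for like. In NEJ638, NEJ654 and NEJ677 against the other sections, the share of mt-Nd2 was 3.87% to 5.93% against 2.21% to 2.90%, that of mt-Nd4 6.73% to 7.35% against 3.77% to 4.87%, and that of mt-Nd5 0.350% to 0.380% against 0.216% to 0.312%. The shares of mt-Nd4l (0.0568% to 0.0686% against 0.0350% to 0.0506%) and mt-Cytb (12.7% to 14.3% against 8.77% to 12.4%) were also higher in those 3 tissues. Lower shares were found for mt-Atp8, at 0.0145% to 0.0203% against 0.0245% to 0.0474%. The ranges of mt-Nd3 all but met, at 1.65% to 2.23% against 0.921% to 1.64%, and mt-Co1 is an overlapping case, at 20.4% to 24.1% against 22.6% to 25.8%.

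mt-Nd1 and mt-Nd2 are neighbours on the same precursor, and their quotient showed the division without any scaling. It was 2.01, 1.78, 1.98 and 1.57 in NEJ146 sections 1 to 4, 1.70 in NEJ634, 2.11 in NEJ687, 2.27 in NEJ723, 0.971 in NEJ638, 0.705 in NEJ654 and 0.624 in NEJ677. The values of NEJ638, NEJ654 and NEJ677 thus lay below those of every other section. The mt-Nd1 to mt-Nd4 quotient ran likewise, from 0.387 in NEJ654 to 1.44 in NEJ723. The mt-Co1 to mt-Co3 quotient, within complex IV, was 0.930 in NEJ638, 1.23 in NEJ654 and 1.02 in NEJ687 and made no such division. mt-Nd2, mt-Nd4 and mt-Nd5 each hold at least 2 of the A runs counted above, whereas mt-Nd4l and mt-Cytb hold none, and the part of these runs in the counts was not tested.

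**Figure D2:**
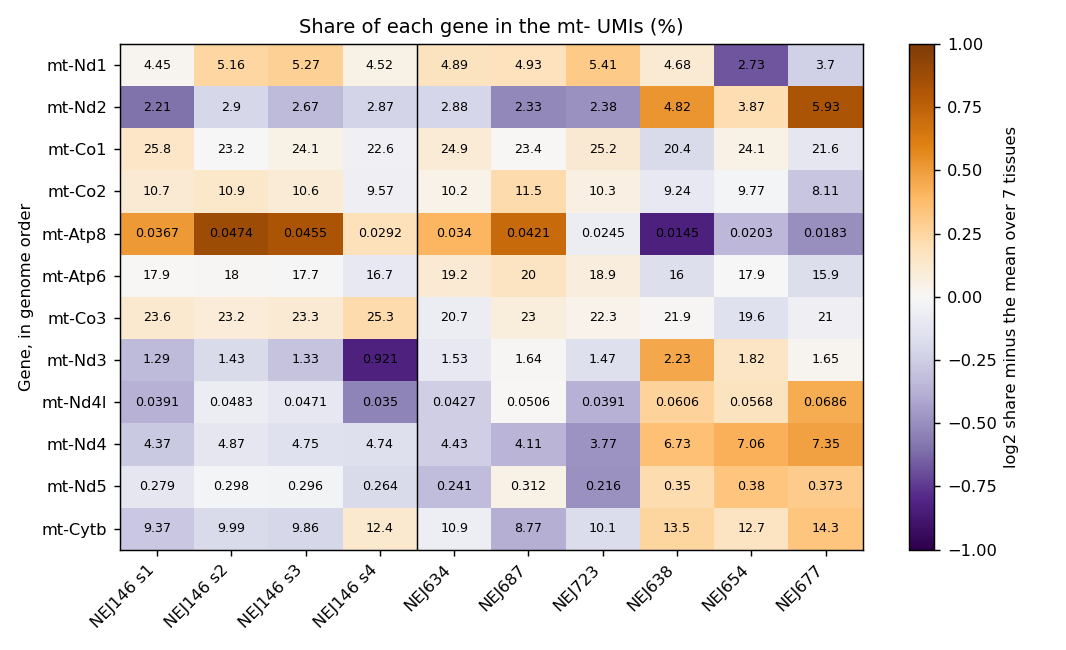
Share of each mt- gene (rows, in genome order) in the mt- UMIs of each section (columns), printed as percent, with colour for the log2 share minus its mean over the 7 tissues. The shares of mt-Nd2 and mt-Nd4 are larger in NEJ638, NEJ654 and NEJ677 (3.87% to 5.93% and 6.73% to 7.35%) than in the other sections (2.21% to 2.90% and 3.77% to 4.87%).

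Of the 83 nuclear members, 67 had their 3 lowest tissues in NEJ638, NEJ654 and NEJ677, against 44% of all genes tested. The lowest tissue was NEJ654 for 61 of them and NEJ677 for 11, and the highest was NEJ146 for 33, NEJ687 for 22, NEJ634 for 14 and NEJ723 for 11. The range over the 7 tissues reached 2-fold in 39 of 83, and over the 6 single sections in 35 of 83, both below the shares of all genes given above (63.5% and 61.4%). Their median range was 1.94-fold, against 2.37-fold over all genes tested. All 4 NEJ146 sections lay above the other tissues for 20 of 83 (2.13% of all genes) and below them for none. Of the mt- members 5 of 12 were lowest in NEJ638, NEJ654 and NEJ677, near the 44% of all genes.

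The size of this division depended on the scale. Alb, which encodes albumin, made up 5.17% to 8.57% of UMIs in NEJ638, NEJ654 and NEJ677 and 0.676% to 1.31% in the other sections, and its part in the CPM scale was not tested. Median-of-ratios size factors moved every level up by 0.07 to 0.23 on the log2 scale in those 3 tissues and down by 0.20 to 0.25 in NEJ634, NEJ687 and NEJ723. On that scale the nuclear sum was 38726 to 44132 in NEJ638, NEJ654 and NEJ677, 47929.5 to 52468 in NEJ634, NEJ687 and NEJ723 and 61553 to 67407 in NEJ146, so NEJ638, NEJ654 and NEJ677 remained lowest with a smaller gap. NEJ687, which sat within the NEJ146 sections by CPM, lay below all of them on this scale, so that NEJ146 stood apart from NEJ634, NEJ687 and NEJ723 with size factors and not by CPM. NEJ677 (44132) also passed NEJ638 (43579). The members lowest in those 3 tissues then numbered 36 (34.4% of all genes), those with a 2-fold range 23 over 7 tissues (54.9%) and 13 over 6 (53.2%), and those with NEJ146 above 48 (6.19%). All 36 were among the 67. The mt- sum on that scale was 34258 in NEJ654, 33267 in NEJ677, 32413 in NEJ634, 29735 in NEJ687, 25820 in NEJ638 and 24050 in NEJ723. NEJ654 and NEJ677 thus passed NEJ634 and NEJ687, the highest single sections by CPM.

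**Figure D3:**
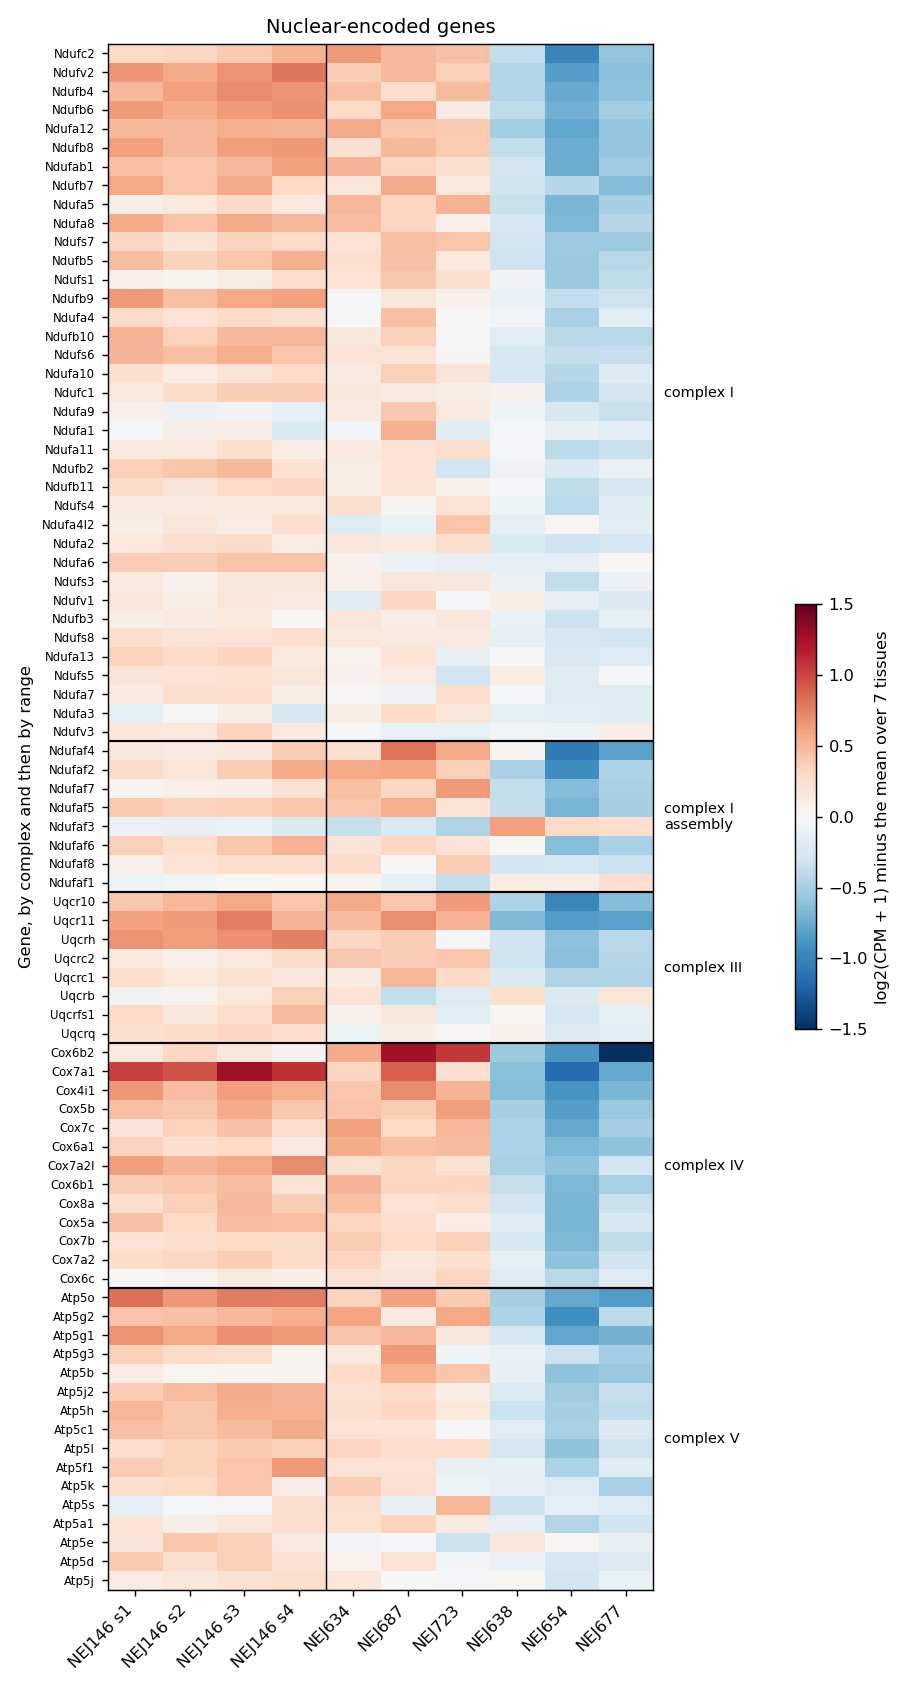
Log2 of CPM + 1 of the nuclear genes (rows, by complex and then by range, 1 member not shown) in each section (columns), minus the mean of the gene over the 7 tissues (blue below, red above). Most rows are low in NEJ638, NEJ654 and NEJ677, most evenly in complex IV where 13 of 13 members have these as their 3 lowest tissues, and the colour scale ends before the value of Cox6b2 in NEJ677.

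The summed subunits of complex I spanned less than those of complexes III, IV and V. Their sum was 11075 to 13322 CPM in NEJ638, NEJ654 and NEJ677 and 16115 to 19058 in the other sections, with 12 of 38 past a 2-fold range, well below the 63.5% of all genes, and 29 of 38 lowest in those 3 tissues, against 44% of all genes. Among the 7 core subunits, which form the electron-carrying peripheral arm, Ndufv2 ranged most (2.83-fold). Ndufv2, a subunit of the NADH-oxidising module, was at 399.6, 373, 401 and 442 CPM in NEJ146 sections 1 to 4, 326 in NEJ634, 354 in NEJ687, 322 in NEJ723, 186 in NEJ638, 142 in NEJ654 and 162 in NEJ677. NEJ638, NEJ654 and NEJ677 were lowest and all NEJ146 sections lay above the rest. Ndufs7, which holds the last iron-sulfur cluster before ubiquinone, was between 169.6 and 204 CPM in NEJ638, NEJ654 and NEJ677 and between 286 and 341 in the other sections. The flavin-binding Ndufv1 (161 to 232 CPM over all sections) and the iron-sulfur subunit Ndufs8 (129.9 to 189) ranged least, and for Ndufv1 the single sections NEJ638 and NEJ634 reversed that order, at 200.4 and 165 CPM.

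Accessory subunits of complex I surround the core and steady it. Of these 31, 23 were lowest in NEJ638, NEJ654 and NEJ677 (44% of all genes) and 10 ranged by at least 2-fold (63.5% of all genes). Ndufc2 was at 475, 479, 508 and 556 CPM in NEJ146 sections 1 to 4, 606 in NEJ634, 542 in NEJ687, 525 in NEJ723, 300 in NEJ638, 195 in NEJ654 and 256 in NEJ677, a 3.1-fold range. Its sections did not overlap between NEJ638, NEJ654 and NEJ677 and the others. Ndufb4 was between 252 and 313 CPM in NEJ638, NEJ654 and NEJ677 and between 511 and 694 in the other sections. Ndufa3 and Ndufv3 ranged least, 1.37-fold and 1.24-fold, with Ndufv3 at 386 CPM in NEJ677 and 336 in NEJ687. Ndufa4, counted here by its name, is now assigned to complex IV and was between 1409.6 and 1915 CPM in NEJ638, NEJ654 and NEJ677 and between 1959.5 and 2691 in the other sections. Its paralog Ndufa4l2 was also counted in complex I by its name. Ndufa4l2 did not have NEJ638, NEJ654 and NEJ677 as its lowest tissues.

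Assembly factors, which build complex I and leave it, had 6 of 8 past a 2-fold range (63.5% of all genes) and 6 of 8 lowest in NEJ638, NEJ654 and NEJ677 (44% of all genes), and the other 2 ran against them. Ndufaf4, a factor of the quinone-binding module, was at 54.3, 52.5, 53.3 and 62.9 CPM in NEJ146 sections 1 to 4, 57.4 in NEJ634, 85.4 in NEJ687, 71.97 in NEJ723, 49.4 in NEJ638, 22.6 in NEJ654 and 26.9 in NEJ677, a 3.67-fold range. It was lowest in NEJ654 and NEJ677, while NEJ638 came close to the NEJ146 sections. Ndufaf2, a chaperone of late assembly, ranged 2.88-fold. Ndufaf3, known as the partner of Ndufaf4, was at 19.1, 18.96, 19.2 and 17.5 CPM in NEJ146 sections 1 to 4, 15.95 in NEJ634, 17.3 in NEJ687, 14.8 in NEJ723, 32.04 in NEJ638, 25.2 in NEJ654 and 24.7 in NEJ677. Here NEJ638, NEJ654 and NEJ677 held the highest values, and Ndufaf1, a factor of the membrane arm, also had its 3 highest values there (34.4, 34.3 and 38.1 CPM against 24.7 to 32.9). Ndufaf3 was named after its values had been seen. Ndufaf8 was between 83.5 and 87.9 CPM in NEJ638, NEJ654 and NEJ677 and between 105 and 136 in the other sections.

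Complex III summed to 5130.1 to 6371 CPM in NEJ638, NEJ654 and NEJ677 and 9070.5 to 10592 in the other sections, with 4 of 8 members past a 2-fold range, below the 63.5% of all genes, and 5 of 8 lowest in those 3 tissues, against 44%. Uqcr10, a small subunit at the cytochrome c1 side, was at 1647, 1757, 1857 and 1662 CPM in NEJ146 sections 1 to 4, 1839.7 in NEJ634, 1656 in NEJ687, 1944 in NEJ723, 905 in NEJ638, 629 in NEJ654 and 792 in NEJ677. Uqcr11, another small subunit, was between 1053 and 1187 CPM in NEJ638, NEJ654 and NEJ677 and between 2637 and 3225 in the other sections. Both small subunits fell into separate ranges, whereas Uqcrfs1, the Rieske iron-sulfur protein that carries electrons to cytochrome c1, overlapped at 375 to 461 CPM against 399 to 629. Uqcrb, a subunit close to cytochrome b, was named after its values had been seen and ran against the group, at 586, 631, 679.7 and 780 CPM in NEJ146 sections 1 to 4, 709 in NEJ634, 473 in NEJ687, 530.2 in NEJ723, 721 in NEJ638, 523 in NEJ654 and 690.4 in NEJ677. It was higher in NEJ638 than in NEJ146 sections 1 to 3 and lowest in NEJ687. Uqcrq spanned 1.39-fold, with NEJ634 (1679.9 CPM) below NEJ638 (1859).

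Complex IV, taken by symbol and so without Ndufa4 and Ndufa4l2, divided the tissues most evenly. Its 13 nuclear members summed to 8209.8 to 10251 CPM in NEJ638, NEJ654 and NEJ677 and 16330.5 to 17631 in the other sections, all 13 had their 3 lowest tissues in NEJ638, NEJ654 and NEJ677, and 11 ranged by at least 2-fold, beside 44% and 63.5% of all genes. With size factors 11 of 13 still had those 3 as lowest and the sums remained apart, at 9407 to 11517 against 14609 to 18619, but 5 of 13 ranged by 2-fold, beside 34.4% of all genes lowest there and 54.9% past 2-fold, so that the count of 2-fold ranges then lay below the background. The smallest ranges were those of Cox6c (1.67-fold) and Cox7a2 (1.89-fold), both structural subunits. The largest were those of 2 tissue-restricted isoforms at low level, Cox6b2 and Cox7a1, which are described with their paralogs below.

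Complex V summed to 9142 to 11278 CPM in NEJ638, NEJ654 and NEJ677 and 13660.4 to 16124 in the other sections, with 6 of 16 members past a 2-fold range, below the 63.5% of all genes, and 14 of 16 lowest in those 3 tissues, against 44%. Atp5o, the oligomycin sensitivity protein that joins the catalytic head to the peripheral stalk, was at 922, 814, 889.6 and 886 CPM in NEJ146 sections 1 to 4, 661 in NEJ634, 790.3 in NEJ687, 679 in NEJ723, 367 in NEJ638, 305 in NEJ654 and 291 in NEJ677. Its NEJ146 values stood above all others and those of NEJ638, NEJ654 and NEJ677 below. Atp5b, the catalytic beta subunit, was between 1243 and 1756 CPM in NEJ638, NEJ654 and NEJ677 and between 1933 and 2715 in the other sections and was named after its values had been seen. Atp5d, of the central stalk, and Atp5j, of the peripheral stalk, ranged 1.47-fold and 1.39-fold. With size factors the sums of complexes I and V overlapped between the 2 sets of tissues (I at 12689 to 14284 against 13649 to 20143, V at 10475.5 to 11836 against 11571 to 17042), while those of complex III stayed apart at 5878 to 6686 against 7683 to 11195. On that scale the members lowest in NEJ638, NEJ654 and NEJ677 numbered 12 of 38 in complex I, 3 of 8 among its assembly factors, 4 of 8 in III and 6 of 16 in V, beside 34.4% of all genes, and those past a 2-fold range 8, 4, 3 and 3, beside 54.9%.

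Matching the genomes within a complex asked whether mt- and nuclear subunits of the same machine kept step. Over all members, log2 of the mt- sum over the nuclear sum was 0.16, 0.19, 0.13 and 0.24 in NEJ146 sections 1 to 4, -0.60 in NEJ634, -0.82 in NEJ687, -0.99 in NEJ723, -0.76 in NEJ638, -0.18 in NEJ654 and -0.41 in NEJ677. It was highest in NEJ146, whose lowest section lay 0.31 above the highest single section, and NEJ654 and NEJ677 came next. NEJ723 was lowest, so that the 6 single sections spanned 1.76-fold, and they did not divide along the nuclear sum, since NEJ634 lay above NEJ638. The lead of NEJ146 was largest in complex V, where its lowest section lay 0.40 above NEJ654, and 0.24 in complex IV. In complex I it was 0.06 over NEJ677, less than the section SD (0.11). In complex III NEJ146 had no lead. Its sections 1 to 3 (-0.63, -0.54 and -0.62) lay below NEJ654 (-0.43) and NEJ677 (-0.48), and its section 4 (-0.16) lay above both. The same single sections ranged 2.36-fold in complex III, 2.06-fold in IV, 1.90-fold in I and 1.67-fold in V.

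**Figure D4:**
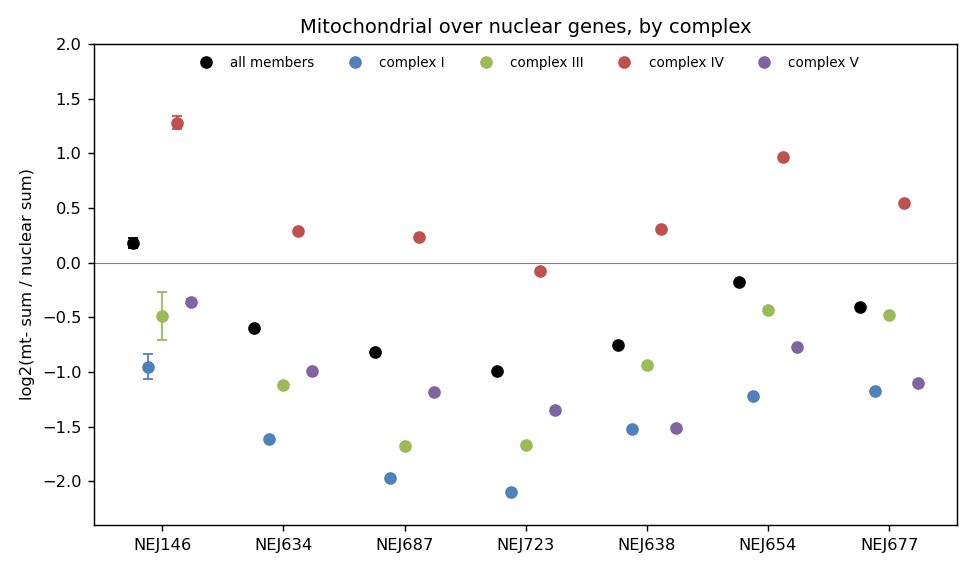
Log2 ratio of summed mt- CPM over summed nuclear CPM (vertical axis) by tissue (horizontal axis), for all members (black) and by complex (colours). NEJ146 points are the mean of 4 sections with the SD as error bars, and lie at 0.18 ± 0.05 over all members against -0.99 to -0.18 in the single sections.

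The log2 ratio of paralogs that replace one another in a complex, on the scale of CPM + 1, was taken for 5 pairs whose members both passed the minimum. It ranged by at least 1 in 4 of the 5 (with a pseudocount of 5, 2 pairs, since the range went from 2.05 to 0.79 for Cox6b2 over Cox6b1 and from 1.33 to 0.94 for Cox7a1 over Cox7a2). No such share was taken for pairs of other genes, and 63.5% of single genes ranged by at least 2-fold over the 7 tissues, so the count is a description. Atp5g1 and Atp5g3 were both set against Atp5g2, so their pairs are not independent. Cox6b2 is the testis form of Cox6b1, a subunit that faces the cytochrome c side. It was at 5.48, 6.25, 5.60 and 5.11 CPM in NEJ146 sections 1 to 4, 7.59 in NEJ634, 12.97 in NEJ687, 11.2 in NEJ723, 2.99 in NEJ638, 2.19 in NEJ654 and 0.916 in NEJ677. NEJ687 and NEJ723 were highest and NEJ677 lowest (95% interval 0.642 to 1.27), a 7.29-fold range against 2.28-fold for Cox6b1. The log2 ratio of the pair ranged by 2.05, from -7.98 in NEJ677 to -5.93 in NEJ687.

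Cox7a1, the heart and skeletal muscle form of Cox7a2, was at 28.8, 27.2, 34.4 and 30.2 CPM in NEJ146 sections 1 to 4, 17.2 in NEJ634, 26.2 in NEJ687, 16.2 in NEJ723, 8.46 in NEJ638, 5.58 in NEJ654 and 7.61 in NEJ677. NEJ146 and NEJ687 were high, NEJ634 and NEJ723 intermediate, and NEJ638, NEJ654 and NEJ677 low. Cox7a2, the form of liver, ranged 1.89-fold, and the log2 ratio ranged by 1.33. Striated muscle markers (Acta1, Ckm, Myl1 and Tnnt3) summed to 0.0255 to 2.80 CPM, with none of 4 at 5 CPM, and at least 1 of them was at 0 in NEJ146 section 1, NEJ638, NEJ654 and NEJ677.

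Atp5g1, Atp5g2 and Atp5g3 encode the same mature subunit of the rotor ring behind different import signals. Atp5g2 was at 552, 557, 575 and 599 CPM in NEJ146 sections 1 to 4, 617 in NEJ634, 455 in NEJ687, 611 in NEJ723, 298 in NEJ638, 216 in NEJ654 and 308 in NEJ677. Atp5g3 was at 918, 878, 850 and 747 CPM in NEJ146 sections 1 to 4, 786 in NEJ634, 1119 in NEJ687, 690 in NEJ723, 669 in NEJ638, 573 in NEJ654 and 499.6 in NEJ677. The highest tissue was NEJ634 for Atp5g2 and NEJ687 for Atp5g3. Their log2 ratio (Atp5g3 over Atp5g2) ranged by 1.23, from 0.18 in NEJ723 to 1.41 in NEJ654, while Atp5g1 over Atp5g2 ranged by 0.74. Ndufa4l2, a hypoxia-responsive paralog of Ndufa4, was at 6.17 to 9.90 CPM, and its ratio to Ndufa4 ranged by 1.06, with Ndufa4 spanning 1.91-fold and Ndufa4l2 1.52-fold. Of forms under the minimum, the muscle subunit Cox6a2 was at 9.30 CPM in NEJ723 (95% interval 8.42 to 10.3) and at most 0.654 in any other section.

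Promoters of the nuclear members were read for motifs of factors known for respiratory genes. Of the 83 members 71 matched a RefSeq promoter (250 bases before to 50 after the start, GRCm38.p6), 69 by symbol and 2 through an older name, and 12, among them Cox4i1, Cox6c, Uqcrb and Atp5a1, had no match. Letters were searched on both strands. The NRF1 letters GCATGCGC occurred in 11 of 71 (15.5%), against 6.33% of 7720 promoters of other expressed genes and 2.71% of all 32851. The YY1 letters AAGATGGCG occurred in 8 (11.3%), against 4.04% and 1.40%, and the ERR letters AAGGTCA in 7 (9.86%), against 4.13% and 4.72%. The ETS letters CCGGAAG, bound by GABPA, were in 16 (22.5%), as in 21.7% of other expressed genes, and the E-box CACGTG in 6 (8.45%), against 12.2%. These matches are descriptions and the search gave no test.

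The subunits with the widest range in their group (Ndufv2, Ndufc2, Uqcr10, Cox6b2 and Atp5o) held none of these letters in their windows, whereas Ndufaf4, the widest of the assembly factors, held the NRF1 letters. For the subunits, the 150 bases before the start are shown for the member with the widest range among those with a match there, 1 each for the complex I core, complex I accessory, III, IV and V groups, on the strand of the gene with the match in capitals. All 5 lie on the minus strand of GRCm38.p6.
Ndufs3, chr2:90904722-90904871: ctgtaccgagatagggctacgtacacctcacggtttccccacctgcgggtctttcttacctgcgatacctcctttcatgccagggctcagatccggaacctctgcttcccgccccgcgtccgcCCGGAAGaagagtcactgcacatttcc
Ndufb4, chr16:37654369-37654518: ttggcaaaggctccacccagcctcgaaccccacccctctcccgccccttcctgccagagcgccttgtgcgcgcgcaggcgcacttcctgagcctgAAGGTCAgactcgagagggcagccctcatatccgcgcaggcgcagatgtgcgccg
Uqcr11, chr10:80406822-80406971: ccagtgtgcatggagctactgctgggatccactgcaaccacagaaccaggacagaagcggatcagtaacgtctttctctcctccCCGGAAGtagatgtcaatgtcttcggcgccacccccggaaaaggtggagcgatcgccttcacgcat
Cox6a1, chr5:115348959-115349108: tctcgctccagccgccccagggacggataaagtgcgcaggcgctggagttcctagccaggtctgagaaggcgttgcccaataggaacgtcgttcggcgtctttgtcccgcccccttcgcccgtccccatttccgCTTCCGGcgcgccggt
Atp5g2, chr15:102671048-102671197: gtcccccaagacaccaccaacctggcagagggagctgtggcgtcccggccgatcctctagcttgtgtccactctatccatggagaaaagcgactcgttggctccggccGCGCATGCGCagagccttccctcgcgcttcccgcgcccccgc

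Capitals mark the ETS letters 20 bases before the start in Ndufs3 and 59 bases before it in Uqcr11, and their reverse complement 9 bases before it in Cox6a1. In their full windows Uqcr11 and Cox6a1 also held the NRF1 letters, which did not lie wholly within the printed bases. In Ndufb4 the capitals mark the ERR letters 48 bases before the start. In Atp5g2 they mark the NRF1 letters read on both strands, 32 and 34 bases before the start. The start is that of RefSeq in each case. By the GENCODE coordinates the marked letters of Ndufs3, Ndufb4, Cox6a1 and Atp5g2 lie inside the gene, and so does the whole printed stretch of Atp5g2. Ranges over the 7 tissues were 1.46-fold for Ndufs3, 2.6-fold for Ndufb4, 2.91-fold for Uqcr11, 2.35-fold for Cox6a1 and 2.85-fold for Atp5g2. All 5 had NEJ638, NEJ654 and NEJ677 as their 3 lowest tissues, as did 67 of the 83 nuclear members and 44% of all genes. They were chosen by their range over the same tissues, so this is no result about the motifs.

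Zonation asked whether members differed between the central vein side and the portal side of the lobule. Within each section, tissue spots were ranked by log2 of pericentral (Glul, Cyp2e1, Cyp1a2, Oat, Slc1a2) over periportal UMIs (Cyp2f2, Hal, Hsd17b13, Ass1, Pck1), with 1 added to each, and the 1 in 3 spots at either end of the ranking were compared. The ends are named pericentral and periportal by rank within a section and not by a common score. The median score of the pericentral end was 1.21 to 2.09 in NEJ638, NEJ654 and NEJ677 but -2.32 to -1.40 in the other sections, where it lay in or below the range of the periportal end of those 3 (-1.99 to -1.01), so the ends do not stand for the same zones in all tissues. The mt- sum was lower at the pericentral end in 7 of 7 tissues. Its log2 difference was -0.36 in NEJ638, -0.32 in NEJ654 and -0.38 in NEJ677, but -0.08 ± 0.08 in NEJ146 (SD, n = 4 sections), -0.03 in NEJ687, -0.05 in NEJ723 and -0.11 in NEJ634. NEJ146 section 4 was the 1 section above 0, at 0.01. The mean over tissues was -0.19 (two-sided exact sign-flip permutation, 7 tissues, p = 0.0156, the smallest p that 7 tissues allow, adjusted over 3 values p = 0.0469). When spots were ranked within 10 equal classes by UMIs the mean was -0.20 and the adjusted p rose to 0.141 in the same exact test, with 6 of 7 tissues below 0 and NEJ723 at 0.03 (0.04 for its mt- to nuclear ratio). The ends of the ranking differed in depth, at a median of 11539 UMIs pericentral and 21430 periportal in NEJ723, 8934.5 and 13846.5 in NEJ687 and, the other way, 14674 and 11589 in NEJ638 and 20114 and 16136 in NEJ146 section 1, and by less in the other sections.

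The nuclear sum differed less, by a mean of -0.07 and below 0 in 6 of 7 tissues (exact sign-flip p = 0.0469, adjusted p = 0.0703), with NEJ634 above 0 at 0.03 and NEJ687 close to 0 at -0.0027, and its largest difference was in NEJ146 at -0.23. NEJ687 turned to 0.0050 with at least 8000 UMIs in every section and to 0.00057 within UMI classes, with 5 of 7 tissues then below 0, and to 0.0034 without Cyp2e1 and Cyp2f2 in the score. The mt- to nuclear ratio was also below 0 in 6 of 7 tissues, with a mean of -0.12 (exact sign-flip adjusted p = 0.0938), and NEJ146 was the exception at 0.15 ± 0.09 (SD, n = 4 sections). Without Cyp2e1 and Cyp2f2 in the score the ratio of NEJ146 was 0.024. Pericentral genes summed to 4185 to 6280 CPM in NEJ638, NEJ654 and NEJ677 but to 81.4 to 538 CPM elsewhere, so the ranking rests on fewer pericentral UMIs in the latter. The 2 ends also differed in adult globin, at 3811 to 5393 CPM pericentral and 7917 to 11340 periportal in NEJ146, 44.6 and 84.7 in NEJ654, 110 and 183 in NEJ677 and, the other way, 1052 and 415 in NEJ634. The gap was smaller in NEJ687 (5950 and 6515), NEJ723 (2099 and 1795) and NEJ638 (159 and 152), and the part of globin in the zonal values was not tested.

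All 12 mt- members were lower at the pericentral end in NEJ638, NEJ654 and NEJ677, beside 51.9%, 34.5% and 35.6% of all genes. Lower there were also 11 of 12 in NEJ634 (33.2% of all genes), but 5 in NEJ146 (51.5%), 6 in NEJ723 (38.5%) and 5 in NEJ687 (46.9%). In NEJ638, NEJ654 and NEJ677 mt-Co1 differed by -0.47, -0.46 and -0.50 on the log2 scale, and mt-Nd2 by -0.22, -0.24 and -0.26. mt-Co1, mt-Atp6, mt-Co3 and mt-Cytb were lower there in all 7 tissues, 4 of 12 against 1.52% of 9813 genes, as were 6 of 83 nuclear members (Cox6b1, Cox7c and Cox8a of complex IV, Atp5g1, and Ndufv2 and Ndufb8 of complex I). Of the nuclear members 81 of 83 were lower at the pericentral end in NEJ146, 64 in NEJ638, 61 in NEJ677, 50 in NEJ654, 67 in NEJ723, 40 in NEJ687 and 21 in NEJ634. Set against the shares of all genes just given, the count in NEJ687 was near the background and that in NEJ634 below it. Cox7a1 showed the clearest zonation of the named nuclear members, at -1.14 in NEJ638, -1.26 in NEJ654, -0.87 in NEJ677 and -0.78 in NEJ146. It differed less in NEJ634 (-0.19), NEJ687 (-0.12) and NEJ723 (0.09), and was chosen for this after its values had been seen.

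**Figure D5:**
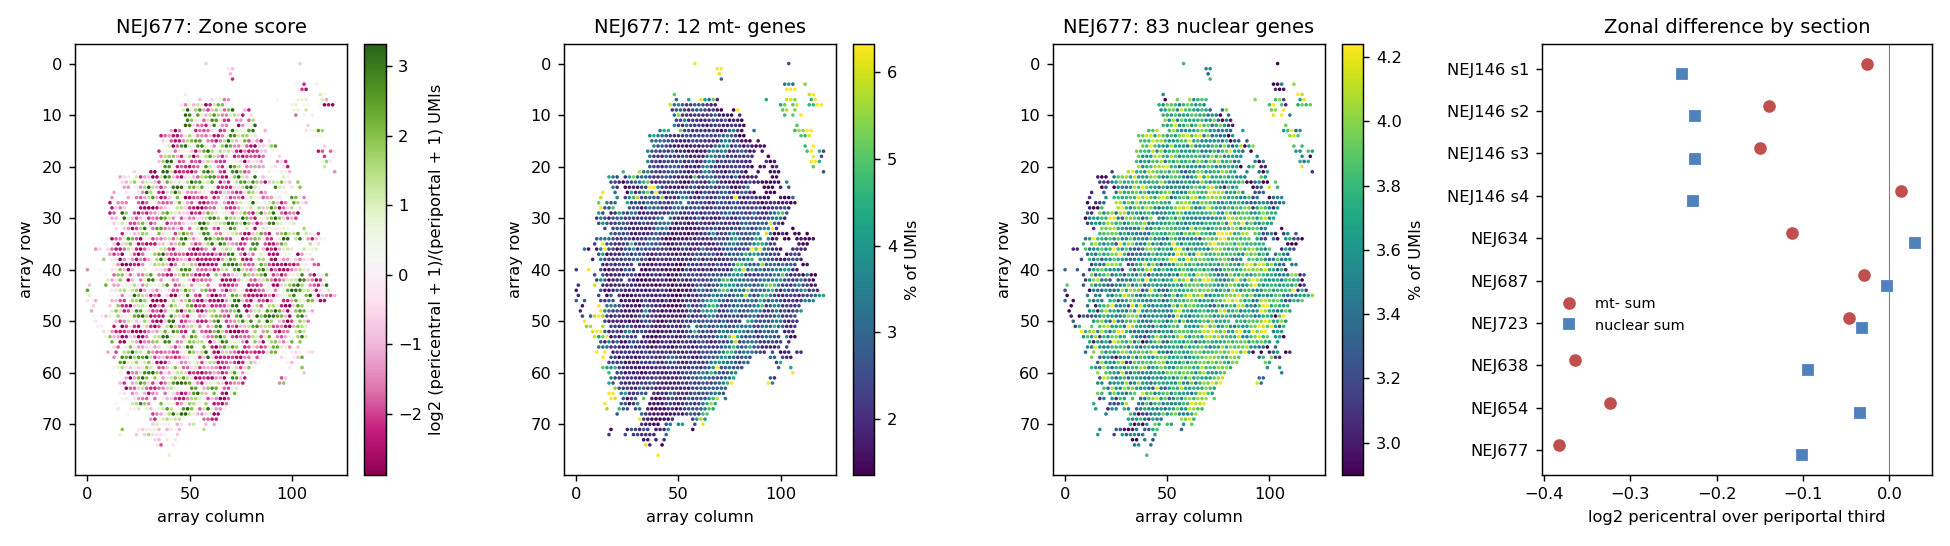
Maps of the NEJ677 section (1 dot per tissue spot with at least 1000 UMIs, array coordinates) coloured by the zone score (log2), the mt- share and the nuclear share of UMIs (percent), and the log2 pericentral over periportal difference of the mt- and nuclear sums in each section. In NEJ677 the mt- sum differs by -0.38 and the nuclear sum by -0.10, and the mt- differences of NEJ638, NEJ654 and NEJ677 lie below those of all other sections (red dots mt-, blue squares nuclear).

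Genes of the respiratory chain that the symbols did not match, and genes around it, were read from a list of related genes. Complex II is wholly nuclear and shared with the citrate cycle. It summed to 895 to 1008 CPM in NEJ638, NEJ654 and NEJ677 and 1025 to 1180 elsewhere, and 0 of its 4 subunits had a 2-fold range, beside 63.5% of all genes. Sdha, the flavoprotein, was at 279 to 379 CPM with NEJ146 lowest. Sdhd came close to the cut with a 1.96-fold range, and NEJ638, NEJ654 and NEJ677 were its lowest tissues. Cytochrome c1 (Cyc1) and cytochrome c (Cycs) both had their lowest values in NEJ638, NEJ654 and NEJ677, with 392, 193 and 296 CPM of Cycs in that order against 446 to 889. Cyc1 is a subunit of complex III that the symbols used here do not match, so the complex III sum and counts leave it out.

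The carriers that exchange ATP for ADP across the inner membrane differed from each other. Slc25a4, the form of heart and muscle, was at 555, 493, 562 and 636 CPM in NEJ146 sections 1 to 4, 392 in NEJ634, 701 in NEJ687, 503 in NEJ723, 60.5 in NEJ638, 18.00 in NEJ654 and 17.9 in NEJ677. NEJ654 and NEJ677 were lowest, NEJ638 came next, and all other sections were far higher, a 37.1-fold range. Slc25a5, the form of dividing cells, was at 469 to 608 CPM in NEJ638, NEJ654 and NEJ677 and 666 to 746 elsewhere (1.51-fold).

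Of the 5 genes of mitochondrial gene expression 3 ranged by at least 2-fold, near the 63.5% of all genes. Polrmt, the mitochondrial RNA polymerase, was at 30.1 ± 1.79 CPM in NEJ146, 40.98 in NEJ634, 63.2 in NEJ687, 54.1 in NEJ723, 23.2 in NEJ638, 19.96 in NEJ654 and 19.7 in NEJ677. NEJ146, the tissue with the highest mt- sum, was not the highest for Polrmt. Of the 5 genes Tfb2m alone was highest in NEJ146 by its mean, and the part of these genes in the mt- level was not tested. Tfam, which packages mitochondrial DNA and starts its transcription, was between 38.8 and 42.5 CPM in NEJ638, NEJ654 and NEJ677 and between 65.1 and 82.5 in the other sections, and Lrpprc, which protects mt- mRNA, was between 61.7 and 88.7 CPM in NEJ638, NEJ654 and NEJ677 and between 104 and 153 in the other sections. Among regulators Pprc1, a coactivator of the PGC-1 family, ranged 11.3-fold, from 6.47 CPM in NEJ654 to 83.5 in NEJ723, while Gabpa ranged 1.57-fold.

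Mitochondrial ribosome genes, which make the mt- proteins, had 40 of 77 past a 2-fold range, below the 63.5% of all genes, and 64 of 77 lowest in NEJ638, NEJ654 and NEJ677, against 44% of all genes, with sums of 4963 to 6090 CPM there and 8642 to 9536 in the other sections. The citrate cycle had 4 of 12 past a 2-fold range, below that share of all genes, among them Idh3a, a subunit of the NAD-linked isocitrate dehydrogenase, at 58.99 CPM in NEJ638, 26.8 in NEJ654, 23.6 in NEJ677 and 97.6 to 135 elsewhere. Citrate synthase (Cs) was nearly level, at 79.7 to 106 CPM.

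Among all other genes at 5 CPM or more, those whose log2 profile over the 7 tissues was closest to the mean of the nuclear members were Mrpl34 (Pearson r 0.995), Tmem70, Mrpl12, Eif2s1 and Timm8a1 (0.993). Mrpl34 and Mrpl12 are mitochondrial ribosomal proteins, Tmem70 is an assembly factor of the ATP synthase, Timm8a1 works in protein import, and Eif2s1 is a cytosolic initiation factor. Closest to the mt- members were Gm3776 (0.978), Ly6d, Dct, Gsta1 and Rp9 (0.918), genes highest in NEJ146. These correlations are over 7 tissues, were picked as the highest of all genes, share the scaling of each section and carry no test.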

How the data were processed

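Visium counts of 10 sections were used. What the authors deposited were whole UMI counts for every gene in every spot, unnormalised and unfiltered, made per the labels with Cell Ranger 6.0 (NEJ146) or Space Ranger 1.3 on mm10 (the other tissues), while the study's methods name Space Ranger for all. Counts were summed over spots called over tissue, or in NEJ146, for which no position file was used, over spots with at least 8000 UMIs, and scaled to CPM. The spot barcodes are those of the slide design, and all sections share 4989. Ranges and folds are of log2(CPM + 1), a scale that understates the change of low genes. How reads shared with pseudogenes, nuclear copies of mitochondrial DNA or overlapping genes were counted is not given in the sources used here, so such genes are uncertain.

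Members, lists and tests were chosen with earlier results of these data known. Named genes were all mt- members, in each complex group the 2 with the widest and the 2 with the narrowest range, paralog pairs and a list of related genes. The zonal difference was tested by an exact sign-flip test over tissues with Benjamini-Hochberg adjustment, and the code was tested on simulated data. Single values of 1 member and 1 related gene are not reported here. Poisson intervals cover counting error only. Adjacent NEJ146 sections differed beyond sampling noise (chi-square per degree of freedom 22.0 to 140.6 over all genes and 96.2 to 824.2 over the members) and were kept apart. Alternatives were other denominators, size factors, UMI minimums and windows, CPM minimums, pseudocounts, gene weights, zone scores and leaving out each NEJ146 section. Promoters and coordinates are from RefSeq (GRCm38.p6) and GENCODE vM21 (GRCm38), the assembly that mm10 names. Python 3.11.15, numpy 2.4.6, scipy 1.17.1, pandas 2.3.3 and matplotlib 3.10.9 were used.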

Additional observations from a re-analysis of the deposited data

Results flagged for a closer look

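In NEJ146, the 1 tissue with 4 sections, 8 of 119 values had a section far from the other 3 by Dixon's test, which chance alone does in about 1 in 20. The summed nuclear complex IV level was 17616 CPM in section 3, against 16330.5 to 16486 in the others. Ndufs1, a core subunit of complex I, was at 149 CPM in section 4 against 127 to 131, and the assembly factor Ndufaf4 at 62.9 CPM in the same section against 52.5 to 54.3. Ndufaf3 was lowest in section 4, at 17.5 CPM against 18.96 to 19.2. Atp5b, the catalytic beta subunit of the ATP synthase, was at 2044 CPM in section 1 against 1933 to 1952. Cox5a of complex IV was at 1049.8 CPM in section 2 against 1164 to 1178, and Ndufv3 of complex I at 453 CPM in section 3 against 399.9 to 406. The zonal difference of the nuclear sum was -0.24 in section 1 (-0.2406) against -0.23 (-0.2279 to -0.2254) in the others.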

How the results depend on the processing

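The lead of NEJ146 in the mt- sum (log2 0.81 over the highest other tissue) was 0.86 with UMIs of other genes as denominator, 1.03 with size factors and 0.90 in spots of 10000 to 20000 UMIs, an alternative added after seeing the data. The mt- range over 6 tissues (0.65) was 0.51 with size factors, 0.56 without the most abundant mt- member and 0.77 in that window. The nuclear range over 7 tissues (0.86) was 0.92 with the other denominator, 0.71 with size factors and 0.94 in the window, and that over 6 tissues (0.84) was 0.44 with size factors. With size factors, nuclear members past a 2-fold range went from 39 to 23 and from 35 to 13, those lowest in NEJ638, NEJ654 and NEJ677 from 67 to 36, and those with NEJ146 above from 20 to 48 (33 in the window). With each gene weighing equally the NEJ146 lead in the mt- to nuclear ratio was 0.25 instead of 0.31 and the range over 6 tissues 0.92 instead of 0.82. With a pseudocount of 5, 2 paralog pairs ranged by 1 or more instead of 4. For zonation, ranking spots within 10 equal classes by UMIs gave -0.20 for mt- (adjusted p = 0.141 in the exact sign-flip test) and turned NEJ723 from -0.05 to 0.034 for mt- and from -0.01 to 0.044 for the ratio, and a score without Cyp2e1 and Cyp2f2 gave -0.0625 for nuclear and -0.15 for the ratio (both adjusted p = 0.0469, exact), with NEJ634 nuclear turning from 0.03 to -0.011. Leaving out each NEJ146 section in turn gave 11 to 12 mt- and 20 to 28 nuclear members with NEJ146 above, and a nuclear range over 7 tissues of 0.84 to 0.87. The cause of these moves was not tested. Counting error mattered for low members such as Cox6b2, with an interval of 0.642 to 1.27 CPM in NEJ677. No paired analysis was possible because only NEJ146 has more than 1 section and its section numbers pair with no other tissue. This concerns section numbers between tissues, and the zonal test compares the 2 ends within each tissue.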
